A study of Mus musculus with 9 samples.

Results

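The genes described here are *Pax2*, *Pax8*, *Six2*, *Six4*, *Eya1*, *Eya2*, *Eya3*, *Eya4* and *Dach1*, members of the Pax-Six-Eya-Dach network. They were chosen by symbol, and every probe listed under these symbols was used, which gave 18 probes for 9 genes among 25697 probes for 18120 genes. Tissue was dissected from CD-1 mouse embryos at E10.5, and RNA was measured on 9 Illumina MouseRef-8 v2.0 bead arrays, with 3 arrays per group. The OV group held pooled otic vesicles, the periotic group held the mesenchyme and dorsal neural tissue around them, and the embryo-minus-otic group held the embryos without the greater otic region. No allele, transgene or treatment was applied to any group.

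Pax proteins bind DNA through a paired domain, and Six-family proteins bind DNA through a homeodomain. Eya proteins are phosphatases that do not bind DNA themselves and act as coactivators of Six-family proteins, and Dach proteins are nuclear cofactors that can act as corepressors. The network is known from eye, kidney, muscle and ear development, and in the ear it acts from the placode onwards. In humans, loss of an *EYA1* copy causes branchio-oto-renal syndrome, in which ears and kidneys are affected.

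Sequence upstream of the annotated starts was examined because Pax and Six-family proteins can bind promoters of other members. The windows are the 250 bases before a RefSeq start on assembly GRCm38.p6, and 11 of them belonged to 7 of the 9 genes. Windows of *Pax2*, *Pax8* and *Six2* are shown because these genes rose in the OV and these windows lie wholly outside the annotated gene. Each is written 5′ to 3′ on the strand of the gene. No letters are in capitals, since neither motif searched was in them.
Pax2, chr19:44746351-44746600, plus strand: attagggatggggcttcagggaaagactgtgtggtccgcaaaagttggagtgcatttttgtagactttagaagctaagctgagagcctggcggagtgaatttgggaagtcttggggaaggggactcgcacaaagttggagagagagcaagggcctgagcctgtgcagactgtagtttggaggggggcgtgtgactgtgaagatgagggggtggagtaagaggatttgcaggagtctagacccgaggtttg
Pax8, chr2:24475600-24475849, minus strand: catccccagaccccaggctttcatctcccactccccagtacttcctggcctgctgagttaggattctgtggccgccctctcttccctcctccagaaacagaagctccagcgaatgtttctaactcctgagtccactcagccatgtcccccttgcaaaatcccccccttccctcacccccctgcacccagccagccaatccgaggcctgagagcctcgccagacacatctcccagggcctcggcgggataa
Six2, chr17:85688255-85688504, minus strand: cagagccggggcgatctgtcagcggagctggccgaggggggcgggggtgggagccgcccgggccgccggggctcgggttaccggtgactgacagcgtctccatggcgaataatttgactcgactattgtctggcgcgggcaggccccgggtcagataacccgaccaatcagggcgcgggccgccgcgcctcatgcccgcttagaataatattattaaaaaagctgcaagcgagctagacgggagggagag

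The motifs were TCAGGTT, the MEF3 motif bound by Six-family proteins, and GCGTGAC, the core of a site for the paired domain of Pax2 and Pax8, each searched on both strands. The MEF3 letters were in 3.49% of all 32851 windows, and the Pax core letters in 1.78%. Among the 11 windows of the network genes, MEF3 occurred in 1 window of *Six4* and the Pax core in 0. Unlike the windows shown above, that *Six4* window lies wholly inside the annotated gene. The *Six4* match is shown within 30 bases, with the motif in capitals in its reverse orientation.
Six4, chr12:73113324-73113353, minus strand: ggcctgggggaAACCTGAtcggccagatcc
A match of letters is a description and not a binding site. The windows above also differed in CpG content, with 26 CpG dinucleotides in that of *Six2*, 6 in that of *Pax8* and 5 in that of *Pax2*, against a median of 6 over all windows. *Pax2* also had windows at other annotated starts, which lie inside the annotated gene and held 20 and 25.

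The authors deposited 1 signal and 1 detection p-value per probe and array, and a probe was taken as above background at a detection p-value under 0.01. On each array, 43.9% to 47.3% of all probes were above background. Signals are given below as quantile normalized log2 intensities, and *q* is the adjusted p of a limma model over all probes. A fold is given as "at least" where a group had no array above background, computed against the lowest signal above background. Such a bound uses group means and leaves out the spread between arrays. Where some arrays of a group were above background, the fold is given as computed, although the group mean can lie below this level. Of 13 otic vesicle marker probes, 10 were higher in the OV in each comparison with a non-otic group, as were 4 of 4 epithelial marker probes. Both lists hold genes that the paper ranked high in the OV on these same arrays, such as *Oc90* and *Cldn6*. These counts therefore describe the groups and are no independent check of the dissection. Of all probes, 5.89% were higher and 5.51% lower in the OV than in embryo-minus-otic tissue, and 5.07% and 5.15% than in periotic tissue. Of 12 hindbrain and neural tube probes, 9 were lower in the OV than in periotic tissue. Of 12 mesenchyme and neural crest probes, 1 was lower in the OV than in periotic tissue, 0 were higher and 11 did not pass the test there, while 10 were lower in the OV than in embryo-minus-otic tissue. Red blood cell markers moved with the groups as well, since 8 of 8 probes were lower in the OV in both comparisons, whose signals summed to 14500 to 33760 on OV arrays, 49860 to 61520 on periotic arrays and 70110 to 73130 on embryo-minus-otic arrays. The part of this difference in the results below was not tested. In bulk tissue, more cells of a type and more RNA per cell cannot be told apart.

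Probes of 6 of the 9 genes were higher in the OV than in both non-otic groups. Of the 18 probes, 8 were higher in the OV than in embryo-minus-otic tissue, where 5.89% of all probes were, and 7 were higher than in periotic tissue, where 5.07% of all probes were. All 7 were higher than both non-otic groups, as were 3.51% of all probes, and they stood for 6 genes, *Eya1*, *Pax8*, *Six2*, *Eya4*, *Six4* and *Pax2*. In the same 7 probes, every OV array lay above every non-otic array, which held for 6.86% of all probes. At *q* under 0.05, no network probe was lower in the OV, where 5.51% and 5.15% of all probes were lower than embryo-minus-otic and periotic tissue. At an unadjusted limma p under 0.05 there were also 0, and the share of all probes there was not computed. Of the 18 probes, 12 were above background on no embryo-minus-otic array and 9 on no periotic array. Such probes could hardly be called lower, so the 0 is not read as a result about the network. The median difference of the 18 probes was 0.242 on the log2 scale against embryo-minus-otic tissue and 0.172 against periotic tissue, where the medians of all probes were 0.00434 and -3.71e-05.

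**Figure D1:**
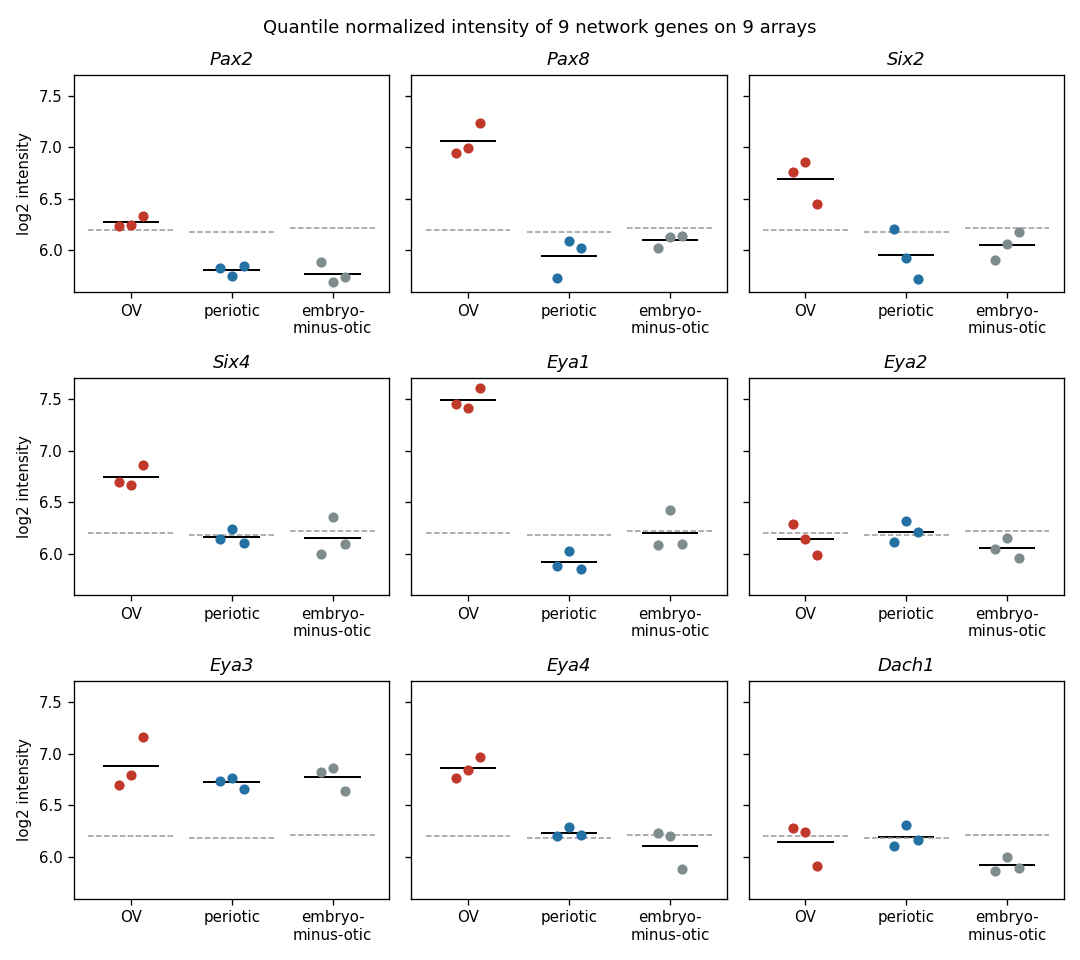
Quantile normalized log2 intensity (vertical axis) of the brightest OV probe of each gene on the 9 arrays, by tissue group. Points are arrays, solid lines are group means and dashed lines are the mean of the lowest signals above background, 6.20 in the OV, 6.18 in periotic tissue and 6.22 in embryo-minus-otic tissue. *Eya1* and *Pax8* stand farthest apart, and *Eya3* lies above the dashed line on every array.

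Among the Eya coactivators, *Eya1* showed the largest difference. Its first probe, ILMN_2638487, read 7.45, 7.41 and 7.61 on the OV arrays, 5.88, 6.02 and 5.85 on the periotic arrays and 6.08, 6.42 and 6.09 on the embryo-minus-otic arrays. Every OV array lay above every other array. The OV mean was 2.46-fold the embryo-minus-otic mean (*q* = 3.6e-07), where 1 array was above background, and at least 2.48-fold the periotic mean (limma, *q* = 3.35e-08). The embryo-minus-otic mean, 6.19, lay slightly below the mean lowest signal above background there, 6.22, so 2.46 is not a measured size. The second probe, ILMN_2686435, read 7.07, 7.27 and 7.11 in the OV, 6.06, 5.97 and 5.93 on the periotic arrays and 5.93, 5.92 and 6.12 on the embryo-minus-otic arrays. It gave at least 1.91-fold over embryo-minus-otic tissue and at least 1.96-fold over periotic tissue (limma, *q* = 3e-07 and 2.52e-07). Both probes thus moved the same way.

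*Eya4*, a paralog whose human mutations cause hearing loss, had a single probe, ILMN_1259450. It read 6.77, 6.84 and 6.97 in the OV, 6.20, 6.29 and 6.21 on the periotic arrays and 6.23, 6.20 and 5.88 on the embryo-minus-otic arrays. The OV arrays did not overlap with the rest, although 2 periotic arrays and 1 embryo-minus-otic array were also above background. The OV mean was 1.69-fold that of embryo-minus-otic tissue and 1.54-fold that of periotic tissue (limma, *q* = 7.59e-05 and 4.82e-04). The embryo-minus-otic mean, 6.10, lay below the mean lowest signal above background there, 6.22, so 1.69 is not a measured size.

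*Eya3*, the broadly expressed member of the family, was the only member with probes above background on all 9 arrays. Its first probe, ILMN_1243290, read 6.70, 6.79 and 7.16 in the OV, 6.74, 6.77 and 6.66 on the periotic arrays and 6.82, 6.86 and 6.64 on the embryo-minus-otic arrays. The groups overlapped, and the OV minus embryo-minus-otic difference was 0.11 on the log2 scale (95% confidence interval -0.13 to 0.35, limma *q* = 0.683). The second probe, ILMN_3089834, read 7.01, 6.69 and 6.83 in the OV, 6.63, 6.49 and 6.83 on the periotic arrays and 6.53, 6.49 and 6.39 on the embryo-minus-otic arrays. This probe was higher in the OV than in embryo-minus-otic tissue, by 0.38 on the log2 scale (limma, *q* = 0.031), and the difference from periotic tissue was 0.19 (*q* = 0.37). Its call was lost without embryo-minus-otic replicate 2 (*q* = 0.0599) or 3 (*q* = 0.105) and without OV replicate 1 (*q* = 0.15) or 3 (*q* = 0.0758). The third probe was above background on no array.

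*Eya2* was near the background in all groups. Its first probe, ILMN_1254886, read 6.29, 6.14 and 5.99 in the OV, 6.11, 6.32 and 6.21 on the periotic arrays and 6.04, 6.15 and 5.96 on the embryo-minus-otic arrays, with 1, 2 and 0 arrays above background. The OV minus periotic difference was -0.07 on the log2 scale (95% confidence interval -0.28 to 0.14). The second probe, ILMN_1253486, was above background on 1 OV array only, and its OV minus embryo-minus-otic difference was 0.02 (95% confidence interval -0.18 to 0.22). Neither probe passed the test in any comparison.

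*Pax8*, which acts early in the otic placode as well as in the thyroid and kidney, had the larger difference of the Pax genes by its first probe. Its first probe, ILMN_1256173, read 6.95, 6.99 and 7.24 in the OV, 5.73, 6.09 and 6.02 on the periotic arrays and 6.02, 6.13 and 6.14 on the embryo-minus-otic arrays. No non-otic array was above background, so the OV was at least 1.80-fold higher than embryo-minus-otic tissue and at least 1.84-fold higher than periotic tissue (limma, *q* = 1.19e-05 and 2.36e-06).

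*Pax2*, its paralog in ear, kidney and eye development, read close to the limit of detection on these probes. Its first probe, ILMN_2949326, read 6.24, 6.25 and 6.33 in the OV, 5.83, 5.75 and 5.85 on the periotic arrays and 5.89, 5.69 and 5.74 on the embryo-minus-otic arrays. It was above background on the 3 OV arrays and on no other. The difference passed the test against embryo-minus-otic tissue (limma, *q* = 8.03e-04) and periotic tissue (*q* = 0.00158), but against the background its fold was at least 1.04 and at least 1.07. The second probes of *Pax2* and *Pax8* were above background on no array and gave no measured level. A dim probe need not mean a low level of the gene, since the paper states that sensitivity varies greatly with probe design. Levels of *Pax2* and *Pax8* are therefore not compared. The paper describes Pax2 as strongly expressed in the E10.5 otic vesicle and as abundant in the central nervous system and pronephros too. That description refers to a supplemental figure, and the paper lists a Pax2 antibody, so it appears to concern protein and not array RNA.

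The Six-family homeodomain genes had 1 probe each. *Six2*, known for keeping kidney progenitors undifferentiated, read 6.76, 6.86 and 6.45 in the OV, 6.21, 5.93 and 5.72 on the periotic arrays and 5.91, 6.06 and 6.18 on the embryo-minus-otic arrays (ILMN_2742627). OV replicate 3 was the lowest OV array but still lay above all non-otic arrays. The OV was at least 1.39-fold higher than embryo-minus-otic tissue and 1.67-fold higher than periotic tissue, where 1 array was above background (limma, *q* = 0.00363 and 0.00115). The periotic mean, 5.95, lay below the mean lowest signal above background there, 6.18, so 1.67 is not a measured size. *Six4* read 6.70, 6.67 and 6.86 in the OV, 6.14, 6.24 and 6.10 on the periotic arrays and 6.00, 6.36 and 6.09 on the embryo-minus-otic arrays (ILMN_1219845). Its OV mean was 1.51-fold and 1.50-fold the embryo-minus-otic and periotic means (limma, *q* = 8.91e-04 and 0.00104), with 1 array above background in each non-otic group. Those means, 6.15 and 6.16, lay slightly below the mean lowest signals above background, 6.22 and 6.18, so these folds are not measured sizes either.

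*Dach1*, the nuclear cofactor, had 4 probes and none passed the test. The first, ILMN_2720341, read 6.28, 6.24 and 5.91 in the OV, 6.10, 6.31 and 6.16 on the periotic arrays and 5.86, 6.00 and 5.89 on the embryo-minus-otic arrays. Here the periotic arrays lay above the embryo-minus-otic arrays, by 0.28 on the log2 scale (95% confidence interval 0.05 to 0.50, limma *q* = 0.181). The OV minus embryo-minus-otic difference was 0.23 (*q* = 0.218), and it passed the test without OV replicate 3 (*q* = 0.0445). No embryo-minus-otic array was above background for this probe. The bounds were at least 0.98-fold for periotic tissue and at least 0.95-fold for the OV, so neither was a measured rise above the background. The second probe was above background on all 3 periotic arrays and on 1 array of each other group, the third on 1 periotic array and the fourth on none.

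**Figure D2:**
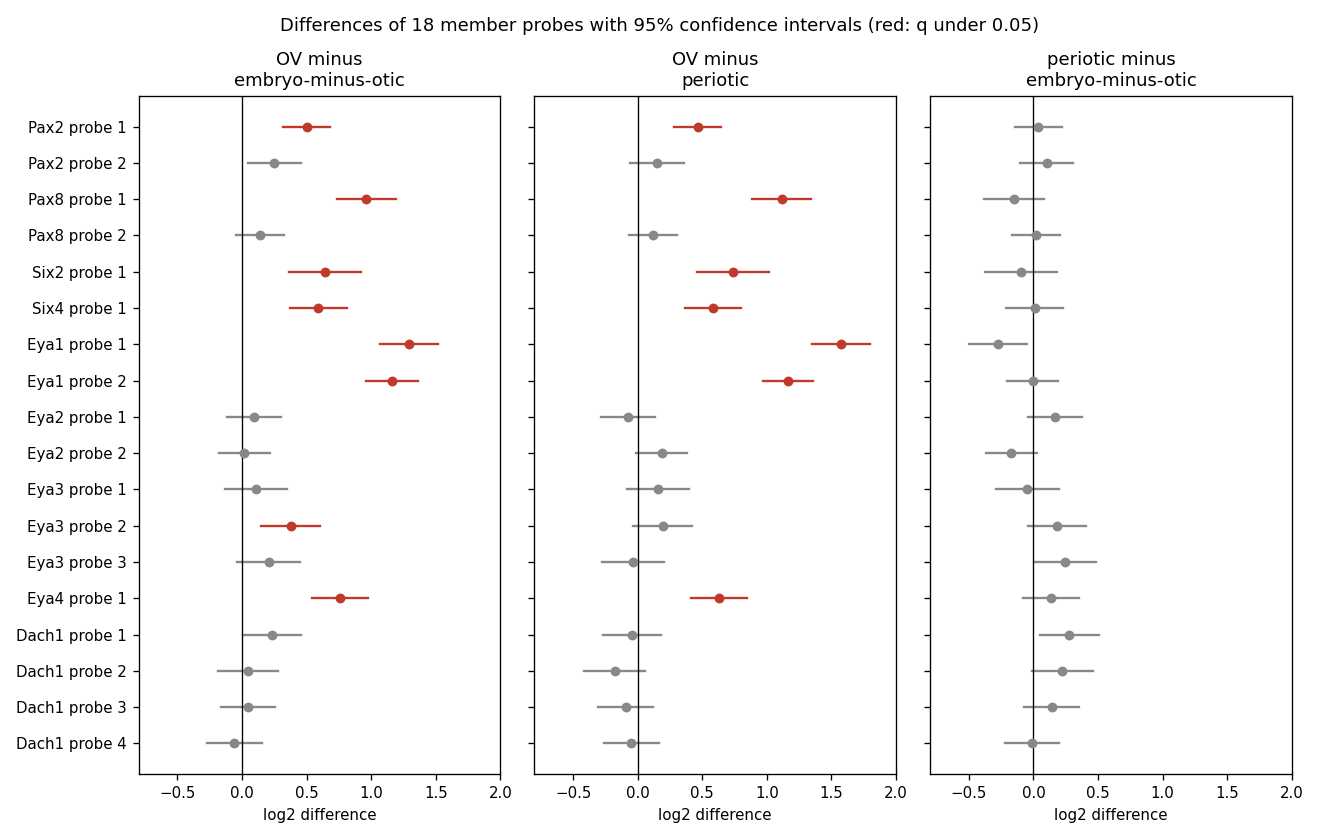
Differences in log2 intensity (horizontal axis) of the 18 probes in the 3 comparisons, with 95% confidence intervals from limma; red marks *q* under 0.05. The 8 and 7 red points of the OV comparisons lie to the right of 0, and no point is red in the comparison of periotic with embryo-minus-otic tissue.

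Between the non-otic groups, no network probe passed the test in either direction, where 2.86% of all probes were higher and 2.95% were lower in periotic tissue. At an unadjusted limma p under 0.05 there were 3, a probe each of *Eya1*, *Eya3* and *Dach1*. The share of all probes at that threshold was not computed, so this count is not read as a result about the network. With neqc, which models the background, there were 0 at *q* under 0.05. The *Eya1* probe was lower in periotic than in embryo-minus-otic tissue on all arrays, with a difference of -0.28 (95% confidence interval -0.50 to -0.05, limma *q* = 0.181). No periotic array and 1 embryo-minus-otic array were above background for it, and embryo-minus-otic tissue was at least 1.008-fold. So hardly any difference above the background was measured. The second *Eya1* probe differed by -0.01 (limma *q* = 0.987). The *Eya3* probe was the one above background on no array.

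**Figure D3:**
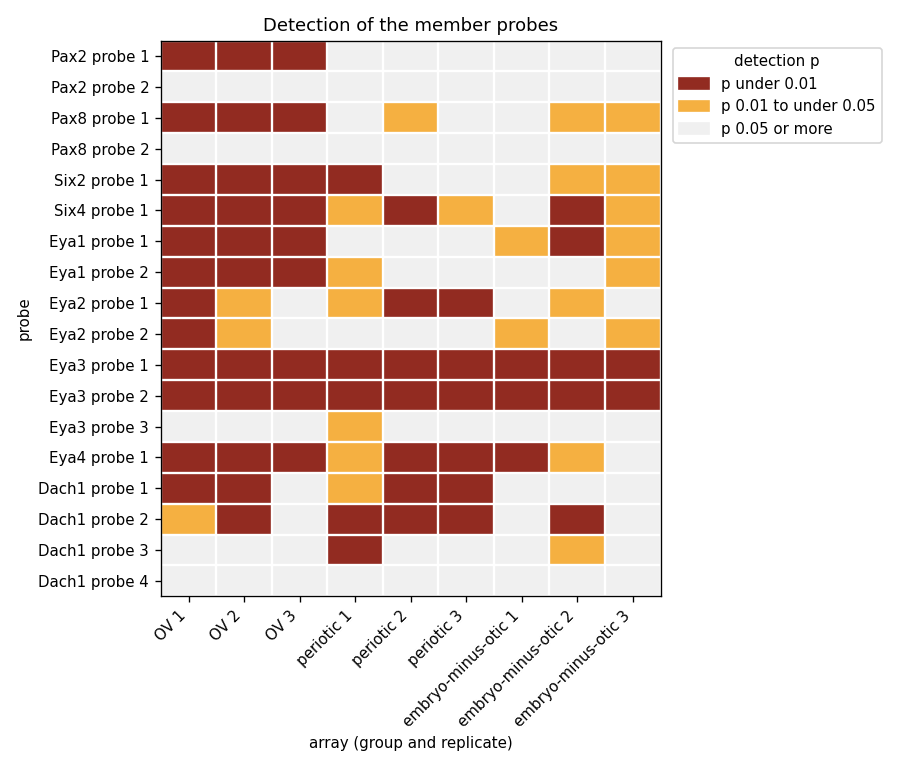
Detection p-values of the 18 probes (rows) on the 9 arrays (columns), in 3 classes. In the OV 9 probes were above background on all arrays, in periotic tissue 3 and in embryo-minus-otic tissue 2.

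Low signals limited these folds. In the OV, 9 probes were above background on all 3 arrays, against 3 in periotic tissue and 2 in embryo-minus-otic tissue, and 4 probes were above background on no array. At a detection p-value under 0.05 the periotic count became 7. The OV fold Δ sets the OV mean against the higher non-otic mean. Where that non-otic group had an array above background, it rose with neqc from 2.46 to 4.21 for the first *Eya1* probe, from 1.54 to 2.15 for *Eya4* and from 1.50 to 2.11 for *Six4*. Of these, the *Eya1* and *Six4* folds rest on non-otic means slightly below the lowest signals above background. For the second *Eya1* probe and the first probes of *Pax8*, *Six2* and *Pax2*, the higher non-otic group had no array above background, and only the bounds above apply. No call of a network probe changed with neqc. With no normalization between arrays, the calls against embryo-minus-otic tissue were lost for *Six2* (*q* = 0.12), *Six4* (*q* = 0.259), *Pax2* (*q* = 0.464) and the second *Eya3* probe (*q* = 0.771), and those of *Eya1*, *Pax8* and *Eya4* held.

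**Figure D4:**
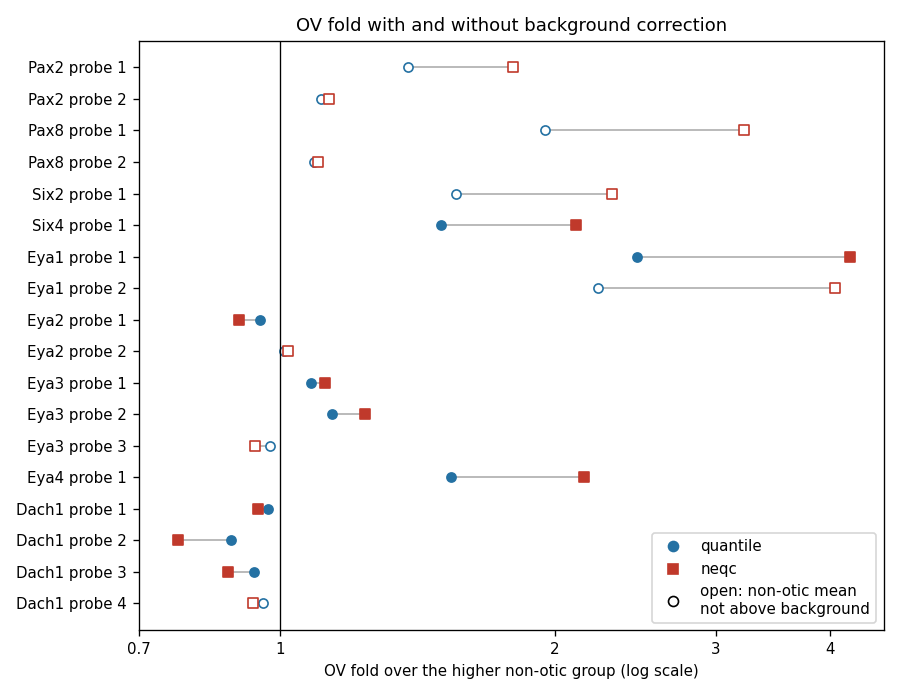
OV fold over the higher non-otic group (horizontal axis, log scale) of each probe after quantile normalization alone (blue circles) and after neqc (red squares). Open symbols mark probes whose higher non-otic group had no array above background, where the fold is not a measured size. Filled symbols of the first *Eya1* probe, *Six4* and the third *Dach1* probe also rest on non-otic means below the lowest signals above background. The first *Eya1* probe moved from 2.46 to 4.21.

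Other genes of the network were taken as 3 lists, and those reported here were 11 other genes of these families, 13 cofactors and 19 genes reported downstream of the network in kidney, muscle or ear. Of these 43 genes, 40 were on the array, with 62 probes. Against embryo-minus-otic tissue, 9 of the probes were higher and 8 lower in the OV, and against periotic tissue 10 were higher and 5 lower. They stood for 5 and 6 genes against embryo-minus-otic tissue, and for 6 and 3 genes against periotic tissue. Over all probes, 5.89% were higher and 5.51% lower than in embryo-minus-otic tissue, and 5.07% and 5.15% than in periotic tissue. Between periotic and embryo-minus-otic tissue, 1 was higher and 6 lower, beside 2.86% and 2.95% of all probes. The median difference was 0.00108 and 0.00938 in the OV comparisons, close to that of all probes.

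Of the 11 other family probes reported here, 1 was above background on all arrays of a group. *Pax3*, a dorsal neural tube and neural crest gene, was lower in the OV than in periotic tissue (limma, *q* = 0.0427), with 1 periotic array above background. No OV array was, and periotic tissue was at least 0.97-fold, so no difference above the background was measured.

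Among the cofactors, 1 of 19 probes was higher in the OV in each comparison, beside 5.89% and 5.07% of all probes. In each comparison 2 were lower, beside 5.51% and 5.15%, and these stood for 1 gene. The Groucho-type corepressor gene *Tle1* was lower by both of its called probes, and *Tle2*, of the same family, was higher. The other *Tle1* probes, ILMN_2765425 and ILMN_2965577, were above background on no array and were not called. Among the reported downstream genes, 8 of 32 probes were higher and 6 lower in the OV than in embryo-minus-otic tissue, beside 5.89% and 5.51% of all probes. Against periotic tissue 9 were higher and 2 lower, beside 5.07% and 5.15%. Of the 18 genes on the array, 4 had a higher and 5 a lower probe against embryo-minus-otic tissue, and 5 and 1 against periotic tissue. Every probe of *Ccnd1* and *Fgf10* was among the higher ones, so the shares of probes do not show a rise across the list. The zinc finger factor gene *Gata3* was 7.29-fold and 8.51-fold higher in the OV (limma, *q* = 8.03e-11 and 1.34e-11), and the growth factor gene *Fgf10* was 4.78-fold and 10.02-fold higher by its brightest probe, ILMN_2982771 (*q* = 1.69e-10 and 2.61e-12). Probes of *Fgf8*, *Wnt4*, *Tcf21*, *Gdnf* and *Myog*, known from limb, kidney and muscle, were lower in the OV than in embryo-minus-otic tissue. Against periotic tissue *Fgf8* was higher in the OV, at least 1.28-fold (limma, *q* = 0.0224). Among the listed probes reported here, *Fgf8* showed the largest difference between the non-otic groups, at least 4.10-fold lower in periotic tissue (limma, *q* = 3.7e-08).

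For 7 of the 9 genes, those with a probe above background on all OV arrays, the most alike probes were found by the mean absolute difference of centred log2 intensities over the 9 arrays, among probes above background on all arrays of a group. *Eya1* was closest to *Lisch7* (0.081), *Hr* (0.0865) and *Etv5* (0.0976). *Pax8* was closest to *Slco3a1* (0.0549), *Grasp* (0.0777) and *Cipp* (0.0816), and *Pax2* to *Sema4f* (0.0354). *Eya4* was closest to *Hspa2* (0.055), and *Six4* to a probe listed as *LOC232400* (0.0713). These are descriptions over arrays that share the same 3 groups.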

How the data were processed

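RNA of 9 pools was hybridized to 1-colour bead arrays. The authors deposited average signals as intensities that were not normalized between arrays, and detection p-values. Whether background was subtracted is not given in the sources used here. The lowest signal of each array was 32.82 to 49.16, so no array held negative signals. Pools came from 3 litters, and how litters map to replicate numbers is not stated, so p-values measure the spread between pools. Signals were log2 transformed, quantile normalized and modelled by group in R 4.3.3 (limma 3.58.1); *q* is the Benjamini-Hochberg adjusted p over all 25697 probes, called under 0.05. Steps were tested on simulated data. Alternatives were neqc (offset 16), median or no normalization, a filter on dim probes, other fits, the replicate block and each array left out. Named were all probes of the 9 genes and at most the 3 largest called probes of other network genes per comparison, plus genes of small counts chosen after their values were seen. The members and lists were chosen with earlier results of these data known. A gene of the lists is not reported here, and the list counts leave it out. Slides were not analysed here.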

Additional observations from a re-analysis of the deposited data

How the results depend on the processing

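Of 1102 values recomputed under the alternatives, 1088 kept their direction and side of the threshold where called, 13 lost a call, 1 gained a call and 0 reversed; 43 values that were not called changed sign. No normalization took the count of network probes higher in the OV than embryo-minus-otic tissue from 8 to 4, with *Pax2* (*q* = 0.464), *Six2* (*q* = 0.12), *Six4* (*q* = 0.259) and the second *Eya3* probe (*q* = 0.771) losing the call, and *Pax2* lost it against periotic tissue (*q* = 0.211). The cause was not tested. Median normalization lost the *Eya3* call (*q* = 0.0815). The member counts were 7 to 8 and 7 to 7 with each array left out. At detection p under 0.05 the count above background in periotic tissue was 7. For the 62 other network probes reported here, those lower in the OV than periotic tissue numbered 5, 2 with median and 3 with no normalization, and 3 to 5 with an array left out. Those higher in periotic than embryo-minus-otic tissue numbered 1, 3 with median normalization, 0 with no normalization, with only the groups compared or with the intensity trend, and 0 to 1 with an array left out. Counts over all probes also fell: with no normalization 588 were higher and 795 lower in the OV than embryo-minus-otic tissue, against 1513 and 1417, and 1472 and 670 with median normalization. Between periotic and embryo-minus-otic tissue, 812 were higher and 315 lower with median normalization, against 736 and 757.

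With the replicate block, 8 and 7 network probes were higher in the OV and no call changed. Same-numbered arrays had correlations of their deviations from the group means of 0.00798 to 0.182, and 5 of 9 were above 0.1. Arrays with different numbers were not compared, so these values cannot decide whether the numbers mark pairs. The numbers were not taken as pairs because the labels do not say that a number marks a shared litter. The 3 arrays per group limit the precision, and folds against a group with no array above background are bounds only. Other folds against a group whose mean lay below background are not measured sizes.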
